A study of Mus musculus with 3 samples.

Results

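The clustered protocadherin genes are 58 genes in 3 neighbouring arrays on mouse chromosome 18, and cytosine modification was read across them in DNA from 1 culture type, E14 mouse embryonic stem cells. The members are the 58 genes named Pcdha1 to Pcdha12, Pcdhac1 and Pcdhac2 (alpha array), Pcdhb1 to Pcdhb22 (beta array), and 12 Pcdhga, 7 Pcdhgb and 3 Pcdhgc genes (gamma array). The annotation used here holds 22359 protein-coding genes and lists exons of 23 members under their own symbols, Pcdhb20 as a pseudogene; other alpha and gamma exons stand in merged genes named Pcdha11 and Pcdhgc5. The members were chosen by gene name and position and not by any measured value. For each gene, reads were pooled over the CpG cytosines of its variable first exon and of the 500 bp upstream of that exon, here called the promoter. The exons shared by all alpha or all gamma transcripts, the constant exons, were pooled in the same way. The 5 genes with a C in their name (Pcdhac1, Pcdhac2, Pcdhgc3, Pcdhgc4 and Pcdhgc5) are the C-type isoforms and were kept as a group of their own, which left 12 alpha, 22 beta and 19 gamma exons.

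Clustered protocadherins are cell-surface adhesion proteins best known from neurons. Each variable exon has its own promoter and encodes the extracellular cadherin repeats, the transmembrane segment and part of the tail. In the alpha and gamma arrays this exon is spliced to constant exons that add a common cytoplasmic end, whereas a beta gene has no constant exons. A neuron uses a small, largely random choice of the alpha, beta and gamma isoforms, with the C-type isoforms chosen in a more regular way, and the resulting combination lets a cell tell its own branches from those of others. DNA methylation at the promoters and binding of CTCF and cohesin are known parts of this choice, and methylation patterns are laid down in early embryonic cells.

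The study compared chemistries on DNA of a single kind, with 1 library each. The cells of all 3 libraries were grown on gelatin in serum with LIF and the kinase inhibitors PD0325901 and CHIR99021, a medium that keeps them undifferentiated. TAPSβ reads 5-methylcytosine (5mC): 5hmC is blocked with glucose, 5mC is oxidised by a TET enzyme, and borane turns the product into a base read as T. CAPS reads 5-hydroxymethylcytosine (5hmC) after oxidation with potassium ruthenate, and PS (pyridine borane sequencing) reads 5-formylcytosine and 5-carboxylcytosine (5fC and 5caC). TAPSβ and CAPS convert 5fC and 5caC as well. The modification level is the percentage of reads at a cytosine, or pooled over a region, that showed the conversion. It was not corrected for incomplete or false conversion. The lowest TAPSβ levels may thus be false conversion in part or in whole. Over the genome the level was 57.5% in the TAPSβ library, 3.14% in the CAPS library and 0.246% in the PS library, with median depths of 13, 9 and 9 reads per cytosine.

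With 1 library per chemistry there is no replicate error, no test between chemistries or exon groups was possible, and no p-value is given for such differences. Intervals in parentheses are 95% Clopper-Pearson intervals. They cover counting error only, and since 1 read often covers several cytosines its calls are not independent. Where no call was modified, the limit given is 3 counts of the total. The DNA came from many cells, so a level between 0 and full at a cytosine can mean a mixture of cells, of the parental copies, or both. These cannot be told apart here. A pooled level can also join cytosines of unlike level. In the alpha exons, at 21.3% when pooled, 61.8% of the cytosines with at least 10 reads were under 20% in TAPSβ.

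Variable exons held much less 5mC than the genome as a whole. Pooled TAPSβ levels were 21.3% in the 12 alpha exons (20.9 to 21.8), 31.4% in the 22 beta exons (31.0 to 31.8), 20.3% in the 19 gamma exons (19.97 to 20.6) and 20.6% in the 5 C-type exons (19.99 to 21.2), and 24.1% over all 58. The beta exons were thus the most methylated group, and the other 3 lay within about a percentage point of each other. Outside alpha, many of the listed exons include untranslated sequence. In the coding parts alone, the C-type level was 23.0% (22.3 to 23.7), above alpha at 21.3% (20.9 to 21.8) and gamma at 20.8% (20.5 to 21.1). Among single exons the levels ran from 7.24% to 53.2% in alpha (median 21.8%), from 21.6% to 51.3% in beta (median 29.0%), from 7.40% to 34.7% in gamma (median 20.8%) and from 10.4% to 37.0% in the C-type group (median 23.8%). The spread within each group was therefore wider than the gap between the groups, and the groups overlapped. Reads from the coding and the template strand gave TAPSβ levels within about a percentage point of each other, as for alpha with 21.9% and 20.8%. Within the gamma array, the A-type exons (22.8%, 22.4 to 23.3) were more methylated than the B-type exons (16.8%, 16.3 to 17.2), whose exons are also denser in CpG, at 4.71 against 3.36 per 100 bp.

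The sequence between the exons was different. Outside exons and promoters the TAPSβ level was 58.5% in the alpha array, 51.0% in the beta array and 48.3% in the gamma array, close to the genome value in alpha and above every exon group in all 3. CpGs were sparse there, with 0.674, 0.591 and 0.827 per 100 bp, against 4.83 in alpha exons, 2.10 in beta exons, 3.84 in gamma exons and 3.72 in C-type exons. The pooled exons were thus richer in CpG and less methylated than their surroundings, and 57 of the 58 single exons were below the rest of their own array. Pcdhb6, at 51.3% (49.1 to 53.4), was not distinguishable from the 51.0% around it, and its coding part was at 46.5%.

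**Figure D1:**
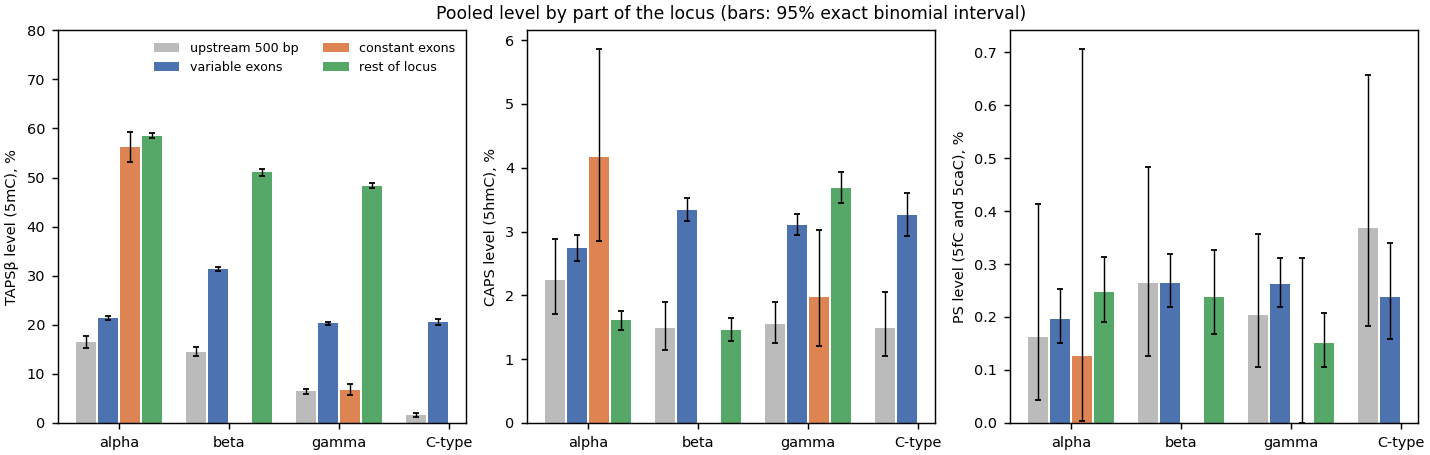
Pooled modification level (vertical axes, %) in the TAPSβ, CAPS and PS libraries for the parts of the alpha, beta and gamma arrays and for the C-type genes; grey bars are promoters, blue variable exons, orange constant exons and green the rest of the locus, and error bars are 95% exact binomial intervals. In the TAPSβ panel the rest of the locus stands at 48.3% to 58.5% and every group of variable exons at 20.3% to 31.4%, while the PS bars all stay under 0.4%.

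Coding sequence this long is usually more methylated in these libraries. Of 1280 coding stretches of at least 1500 bp outside the clusters, 891 had a TAPSβ level of 50% or more (69.6%), with a median of 65.1%. These stretches came from exons at any position, whereas the members are first exons that begin beside a promoter. The part of position in the gap was not tested. Of the coding parts of the 58 variable exons, 1 reached 50%, that of Pcdha8, and 14 of 58 were under 20%, against 12.8% of the outside stretches. The gap was narrower among sequences dense in CpG. Of the 388 outside stretches with at least 3 CpGs per 100 bp, 26.8% reached 50% and the median was 31.2%, whereas 38 members with that density had a median of 21.8%, with 1 of them at 50% or more. Pooled over reads the 388 stretches had 22.9%. The coding parts of all 58 members had 23.8%, but these include exons under that density, so the 2 pooled levels are not a matched comparison. Across the 58 exons the TAPSβ level went down with CpG density (Spearman rho = -0.60), most clearly among the 19 gamma exons (rho = -0.77). The relation was weaker within alpha (rho = -0.37, 12 exons) and beta (rho = -0.31, 22 exons). These are descriptions over exons of 1 library that share base composition and a chromosome.

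Promoters were lower still. The pooled TAPSβ level upstream of the exons was 16.5% in alpha (15.3 to 17.7), 14.5% in beta (13.6 to 15.4), 6.46% in gamma (5.97 to 6.98) and 1.62% in the C-type group (1.27 to 2.03). In the whole genome 24.0% of 19234 other protein-coding promoters had a level of 50% or more. Among the members 2 of 58 did, Pcdha8 and Pcdhga12. A level under 20% was found in 49 of 58 members and in 66.2% of the other promoters. Highly methylated promoters were rarer among the members, but their typical level was not lower. Their median was 8.28% and their pooled level 9.20%, above the median of 4.33% and the pooled level of 6.33% of the other promoters. The member windows were not all alike. In all 12 alpha genes and in part of the beta, gamma and C-type genes, the exon used here begins at the start codon. The windows of these genes may thus hold untranslated exon sequence. Comparisons between groups, and with other promoters, therefore mix 2 kinds of window. With every window taken upstream of the start codon, the pooled member level was 6.97%. The exon was more methylated than its own promoter in 50 of the 58 genes, which were 10 of 12 alpha, 18 of 22 beta, 17 of 19 gamma and all 5 C-type genes. No such count was made over other genes. The same order stood in their medians, 4.33% for promoters and 65.1% for the outside coding stretches, so it is not particular to the members. The choice of promoter window matters for the level, since 200 bp upstream gave 3.31% over all members and 1000 bp gave 17.3%, against 9.20% for 500 bp. The promoters of Pcdhb20 and Pcdhb22 overlap in part the exons of the genes before them.

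**Figure D2:**
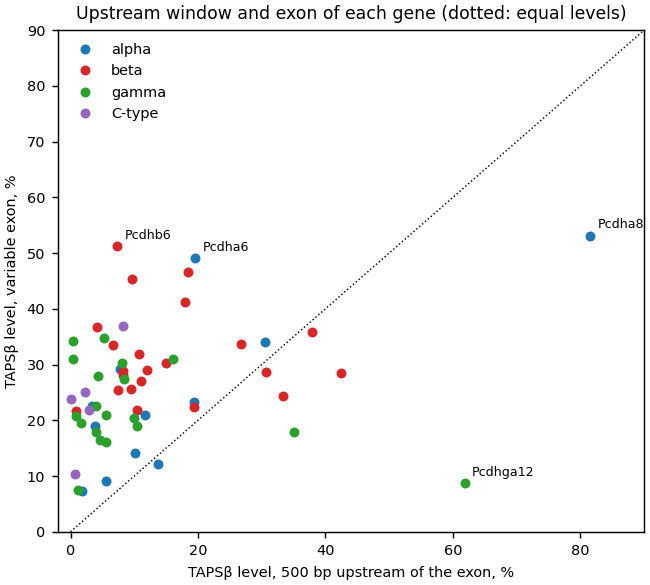
TAPSβ level of the variable exon (vertical axis, %) against that of the 500 bp upstream of it (horizontal axis, %), 1 point per gene, coloured by group; the dotted line marks equal levels. Most points lie above the line and at promoter levels under 20%, and Pcdha8 (81.6% and 53.2%) and Pcdhga12 (61.9% and 8.74%) stand to the far right.

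The most methylated promoter was that of Pcdha8, at 81.6% (76.5 to 85.9, 282 calls). It was followed by Pcdhga12 at 61.9% (51.9 to 71.2, 105 calls) and Pcdhb20 at 42.4% (34.6 to 50.5, 158 calls). The values of Pcdhga12 and Pcdhb20 rest on where the exon is taken to start. The listed exon of Pcdhga12 begins 537 bp before the start codon, and in the 500 bp just before that codon 0 of 385 TAPSβ calls were modified, which allows a level of up to 0.779%. For Pcdhb20 the level there was 13.7% (9.55 to 18.8), below Pcdha7 and Pcdhb12. Upstream of the start codon the group levels were 10.6% in beta, 4.02% in gamma and 1.04% in C-type genes, with the alpha windows unchanged. Measured there, 1 member stayed at 50% or more, Pcdha8, and 54 of 58 were under 20%. The exon of Pcdha8 is not listed and was taken from its start codon, so its 2 windows are the same and its value could not change. In the windows upstream of the exon, the lowest were Pcdhac2 with 0.14% (0.02 to 0.52, 1391 calls), Pcdhga4 with 0.36% (0.01 to 1.99) and Pcdhga7 with 0.41% (0.05 to 1.47). Their intervals overlap, so these 3 cannot be ranked. Upstream of the start codon the lowest were Pcdhga12, Pcdhgc3 with 0.12% (0.01 to 0.43) and Pcdhac2. Without a correction for false conversion, levels this low cannot be told from unmethylated DNA.

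The C-type promoters were the least methylated group. The TAPSβ level was 2.25% at Pcdhac1, 0.14% at Pcdhac2, 0.74% at Pcdhgc3, 2.86% at Pcdhgc4 and 8.25% at Pcdhgc5, in the order of the chromosome. These promoters were also the richest in CpG, with 4.92 per 100 bp against 1.39 to 2.23 in the other groups. Their exons did not share this low level. Pcdhac1 (chromosome 18, 37249790 to 37252225) had 436 modified of 1744 TAPSβ calls in the exon (95% interval 23.0% to 27.1%) and Pcdhac2 (37303623 to 37306184) had a level of 23.8% (22.1 to 25.5). Pcdhgc3 (37966064 to 37968631), the C-type gene with the lowest exon, had 10.4% (9.64 to 11.2), Pcdhgc4 (37974733 to 37977637) had 21.8% and Pcdhgc5 (37979200 to 37981788) had 37.0% (35.0 to 39.0). The exons of Pcdhac1 and Pcdhac2 do not differ beyond counting error, and Pcdhgc5 stood above and Pcdhgc3 below the other 4. The place of Pcdhgc4 depends on untranslated sequence, since its listed exon begins 454 bp before the start codon. In the coding part alone Pcdhgc4 was at 30.2% (28.6 to 31.9), above Pcdhac1 and Pcdhac2, whose exons begin at the start codon. All coordinates are NCBIM37 (mm9) and all exons lie on the plus strand.

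In the alpha array the levels formed a block. From Pcdha1 to Pcdha5 the exons had 23.3%, 29.3%, 14.2%, 9.03% and 12.1%. The next 3 had 49.1% (Pcdha6, 46.7 to 51.4), 34.0% (Pcdha7, 32.1 to 35.9) and 53.2% (Pcdha8, 50.9 to 55.3). Pcdha9, Pcdha10 and Pcdha11 were back at 19.0%, 21.0% and 22.6%. Pcdha12 (37179884 to 37182277) had the lowest value of all 58 at 7.24% (6.49 to 8.05), within counting error of Pcdhgb6 at 7.40%. The 3 neighbours Pcdha6, Pcdha7 and Pcdha8 thus stood above every other alpha exon, and the promoters of Pcdha7 (30.4%) and Pcdha8 were the most methylated alpha promoters. Across the 12 genes exon and promoter levels went together (Spearman rho = 0.71). Depth went with the level in this array: TAPSβ depth was 8.1 reads per cytosine at Pcdha6, 10.1 at Pcdha7 and 9.0 at Pcdha8, against 11.2 to 16.6 at the other alpha exons, and over the 12 exons rho between TAPSβ level and TAPSβ depth was -0.98. Depth in the PS library did not follow the level (rho = -0.17), and in beta and gamma rho between level and TAPSβ depth was -0.22 and -0.36. The part of depth in the alpha values was not tested. These 3 exons are also among the 4 alpha exons that the annotation does not list, and the 8 listed exons alone gave a pooled level of 17.0%. For Pcdha6 the distance to the shared end of the array differs by 1344 bp from that in RefSeq.

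**Figure D3:**
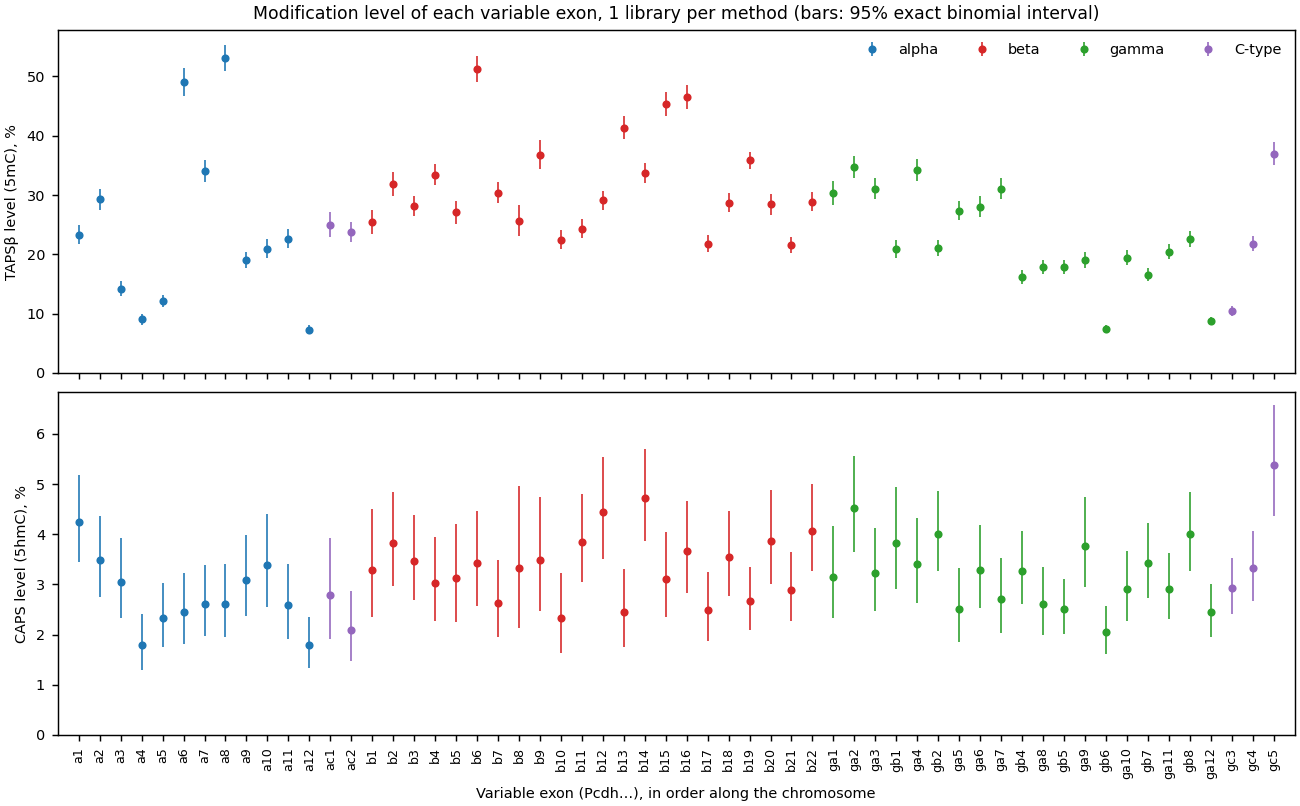
TAPSβ level (upper panel, %) and CAPS level (lower panel, %) of each variable exon, in order along the chromosome and coloured by group; points are pooled levels in 1 library and bars are 95% exact binomial intervals. Pcdha6, Pcdha8 and Pcdhb6 stand highest in the upper panel at 49.1% to 53.2%, gamma exons are lower towards the end of the array, and in the lower panel all exons lie between 1.79% and 5.38% with wide intervals.

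Beta exons had no member as low as the lowest alpha and gamma exons. The lowest were Pcdhb21 with 21.6% (20.3 to 23.0), Pcdhb17 with 21.8% (20.4 to 23.2) and Pcdhb10 with 22.5% (20.9 to 24.1), which do not differ beyond counting error. In the coding parts alone they were at 18.8% (17.3 to 20.3), 20.6% (19.1 to 22.1) and 22.5% (20.9 to 24.2). There the intervals of Pcdhb21 and Pcdhb10 do not overlap. The highest was Pcdhb6 (37493682 to 37497087) with 51.3% (49.1 to 53.4), followed by Pcdhb16 with 46.5% (44.5 to 48.5) and Pcdhb15 with 45.4% (43.3 to 47.5). Pcdhb6 exceeded both only with the untranslated sequence included: in the coding parts alone the 3 were at 46.5% (44.2 to 48.9), 44.2% (41.8 to 46.5) and 45.9% (43.8 to 48.0), and all intervals overlap. Its promoter was at 7.31%, so a high exon level was no sign of a methylated promoter, and over the 22 genes exon and promoter levels did not go together (Spearman rho = 0.02). The listed beta exons include untranslated sequence, without which the pooled level was 29.7%.

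In the gamma array the exon level went down along the chromosome (Spearman rho = -0.69 with order over 19 exons). The highest 3 were Pcdhga2 with 34.7% (32.9 to 36.6), Pcdhga4 with 34.2% (32.4 to 36.1) and Pcdhga7 with 31.1% (29.3 to 32.9). Pcdhga3, also at 31.1%, was level with Pcdhga7. The lowest 3 were Pcdhgb6 with 7.40% (6.71 to 8.13), Pcdhga12 with 8.74% (8.05 to 9.46) and Pcdhgb4 with 16.2% (15.0 to 17.4). CpG density differs along with the position, from 3.24 and 3.03 per 100 bp in Pcdhga2 and Pcdhga4 to 5.34 in Pcdhgb6 and 5.20 in Pcdhga12, and the 2 cannot be told apart. The promoters of the highest 3 were at 5.22% (Pcdhga2), 0.36% (Pcdhga4) and 0.41% (Pcdhga7). The gamma exons that the annotation lists are mostly late in the array, and alone they gave 15.5%.

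Methylation was not even along an exon. When the coding part of each exon was divided into 5 equal parts, the first held 6.84% in alpha, 5.01% in gamma and 5.97% in C-type exons, but 35.9% in beta exons. The third part was at 30.4%, 49.8%, 46.4% and 44.9% in alpha, beta, gamma and C-type exons. In the fourth the level was lower again in alpha (20.05%), beta (17.3%) and gamma (19.5%), and this part was the richest in CpG, with 6.58, 5.31 and 5.11 per 100 bp. Low level and dense CpGs did not always coincide: in beta the last part was at 15.4% (14.7 to 16.2) with 2.24 CpGs per 100 bp. The C-type exons had no such second low point: the fourth part was at 41.0% and held 3.04 CpGs per 100 bp. Counted from the start codon, the 250 bp before it had 10.9% in alpha, 6.32% in beta, 0.38% in gamma and 0.52% in C-type genes. In beta genes the level climbed from there to 61.5% between 750 and 999 bp, and was 9.23% between 1750 and 1999 bp.

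**Figure D4:**
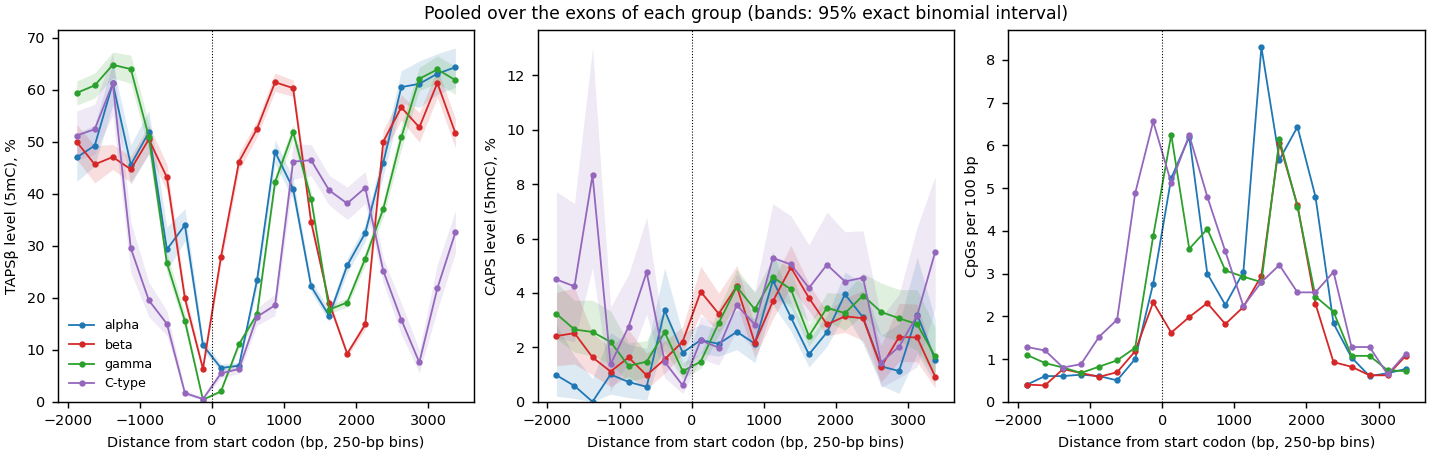
TAPSβ level (left, %), CAPS level (middle, %) and CpGs per 100 bp (right) in 250-bp bins of distance from the start codon, pooled over the exons of each group; bands are 95% exact binomial intervals and the dotted line marks the start codon. The TAPSβ level has its low point at the start codon, a peak near 1000 bp and, in alpha, beta and gamma exons, a second low point where CpGs are dense. In C-type genes the level is low again only past the coding part. It is 7.55% between 2750 and 2999 bp, with 1.28 CpGs per 100 bp.

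CTCF binds both promoters and, in the alpha array, exons of these genes, and its binding is known to be sensitive to methylation. A search of both strands for the CTCF core consensus motif found a match in the coding exon of 6 of 12 alpha genes and in none of the beta, gamma or C-type exons, nor in any member promoter. For comparison, 0.507% of 36481 windows of 2400 bp on the same chromosome and 1.22% of 493 other promoters on it held a match. A match is a description of letters and not a bound site, and the lack of a match is not a lack of binding. The 6 matches lay 463 to 490 bp after the start codon, in Pcdha1, Pcdha4, Pcdha6, Pcdha7, Pcdha8 and Pcdha12. This is a like position in exons that resemble one another, so the matches are not independent of each other. In the 100 bp to either side the TAPSβ level was 0.41% at Pcdha12 (0.05 to 1.48), 0.32% at Pcdha4 (0.01 to 1.80), 5.08% at Pcdha7 (2.73 to 8.53) and 13.4% at Pcdha1 (9.34 to 18.4). It was 24.7% at Pcdha6 (18.5 to 31.8) and 30.9% at Pcdha8 (23.7 to 38.9). The levels at Pcdha12 and Pcdha4 may be false conversion alone. The exons with the highest level as a whole were thus also the highest at the match, except Pcdha7, which was at 34.0% over its exon.

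The constant exons of the alpha and gamma arrays differed from each other. Pooled, they had 56.2% in alpha (53.2 to 59.2) and 6.78% in gamma (5.75 to 7.93), which is above the variable exons in alpha and below them in gamma. The first gamma constant exon (37984675 to 37984733) had no modified call among 199, which allows up to 1.51%, whereas the first alpha constant exon (37315809 to 37315867) had 51.6% of 64 calls (38.7 to 64.3). The last and longest exon had 55.5% in alpha and 6.86% in gamma, and most of it is 3′ untranslated sequence. In the coding part alone the pooled levels were 50.3% (44.9 to 55.6) and 19.6% (16.6 to 22.8), and the gamma value then overlaps that of the gamma variable exons. The second exon of each holds a single CpG, and its levels of 89.3% (28 calls) and 45.2% (31 calls) are correspondingly uncertain.

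5hmC was low in the variable exons, and lower in alpha than in beta exons. The pooled CAPS level was 2.74% in alpha exons (2.54 to 2.95), 3.35% in beta exons (3.17 to 3.53), 3.10% in gamma exons (2.94 to 3.27) and 3.25% in C-type exons (2.93 to 3.60), near the 3.14% of the genome. The false-positive rate used here for unmodified cytosine was 0.72%. Promoters had 2.24% in alpha, 1.49% in beta, 1.55% in gamma and 1.49% in C-type genes. A level of 5% or more was seen in 25.7% of the outside coding stretches and in the coding part of 2 of 58 members, Pcdhb14 (5.25%) and Pcdhgc5 (5.38%). The outside stretches had a median CAPS level of 3.44% and the 58 members one of 3.27%. Among sequences with at least 3 CpGs per 100 bp, 33.2% of the outside stretches and 0 of 38 members reached 5%, with medians of 4.06% and 3.09%.

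In 5hmC most single exons overlapped in their intervals. The highest value was that of Pcdhgc5 with 5.38% (4.35 to 6.57), whose interval overlaps those of Pcdhb14, Pcdhga2 and Pcdhb12. Its promoter also had the highest CAPS level, 5.43% (2.64 to 9.77), with an interval that overlaps that of Pcdhb15 (1.17 to 10.5). Upstream of the start codon Pcdhgc5 was at 3.75% and Pcdhb15 at 4.10%. Pcdhac1, Pcdhac2, Pcdhgc3 and Pcdhgc4 had 2.79%, 2.09%, 2.93% and 3.32%. In the coding parts alone Pcdhgc3 was at 3.26% and Pcdhgc4 at 4.48% (3.57 to 5.54), and the interval of Pcdhgc4 then overlaps that of Pcdhgc5. In alpha the highest were Pcdha1 with 4.25% (3.44 to 5.17) and Pcdha2 with 3.49%, and the lowest Pcdha4 and Pcdha12 with 1.79% each, which are also the exons with least 5mC. Beta exons ran from 2.32% at Pcdhb10 and 2.44% at Pcdhb13 to 4.45% at Pcdhb12 and 4.72% at Pcdhb14 (3.85 to 5.71). Gamma exons ran from 2.05% at Pcdhgb6 (1.61 to 2.57) and 2.44% at Pcdhga12 to 4.002% at Pcdhgb2 and 4.52% at Pcdhga2 (3.64 to 5.55). Pcdha6 and Pcdha8, the alpha exons with most 5mC, had CAPS levels of 2.44% and 2.60%, near the alpha median of 2.60%. Over the 12 alpha exons Spearman rho between TAPSβ and CAPS levels was 0.42. Along the coding part of the exon the CAPS level of gamma genes was 1.98% in the first of the 5 parts and 4.52% in the third, the parts with least and most 5mC.

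At single cytosines, an exact binomial test (one-sided, against the false-positive rate), adjusted over all cytosines of the genome with at least 5 reads, called 1.64% of the CAPS cytosines. In the variable exons it called 157 of 10264, which were 20 of 2586 in alpha, 58 of 3154 in beta, 66 of 3576 in gamma and 13 of 948 in C-type exons. The total stands near the background, and the alpha count is lower, at 0.773%. Mean CAPS depth was also lower in alpha exons, at 9.05 reads against 11.2 to 11.9 in the other groups, and the part of depth in that count was not tested. Between the exons of the gamma array 68 of 1821 cytosines were called and the CAPS level was 3.69% (3.45 to 3.93), against 1.61% and 1.46% in the alpha and beta arrays. The most called cytosines were in Pcdhb14 and Pcdhga2, with 8 each.

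Pooled over each exon group, the PS level, which reads 5fC and 5caC, did not exceed the false-positive rate used here. The PS level was 0.197% in alpha exons (0.150 to 0.253), 0.265% in beta exons (0.218 to 0.318), 0.262% in gamma exons (0.220 to 0.311) and 0.237% in C-type exons (0.159 to 0.340), next to 0.246% in the genome and a false-positive rate of 0.27%. The intervals of all 4 groups lie above the lower rate of 0.1% of methylated lambda DNA, as does the level of the genome, so whether a signal was present depends on the rate chosen. The test called 0.0791% of PS cytosines in the genome and 2 in the variable exons, both in Pcdhb5. Promoters had 0.162% in alpha, 0.263% in beta, 0.204% in gamma and 0.368% in C-type genes (0.184 to 0.657), with intervals that all include the rate. Pcdhb5 had the highest PS level of an exon, 1.00% (0.585 to 1.60), followed by Pcdhga6 with 0.48% and Pcdhb22 with 0.46%. Both called cytosines of Pcdhb5 had a PS level of at least 20%, as a base that differs from the reference sequence would also give, and without them its level was 0.06%, with an upper bound of 0.334%. Of the 10567 cytosines in the variable exons with at least 5 PS reads, 5 had a PS level that high. Over the genome 36518403 of 36570167 such cytosines were under it.

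Promoters of related and neighbouring genes were read for comparison. As given above, 66.2% of all other promoters had a TAPSβ level under 20% and 24.0% had 50% or more. Among 12 other protocadherins, which are single genes outside the arrays, 8 promoters had a TAPSβ level under 20% and 3 had 50% or more. The highest were Pcdh9 with 71.1% (45 calls) and Pcdh20 with 58.5%, and Pcdh1 and Pcdh7 were among 4 with no modified call, which allows up to 0.499% and 0.405%. Of 15 genes beside or between the arrays, 13 promoters were under 20%. Taf7, a general transcription factor gene between the beta and gamma arrays, was at 1.94%, Slc25a2, a mitochondrial transporter gene beside it, at 23.5%, and Cd14 on the far side of the alpha array at 66.3%. Of 12 genes of factors known to act on the arrays, such as Ctcf and Smchd1, 11 were found and all had promoters under 20%, with Dnmt3b highest at 8.51%.

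The exons resemble one another, which bears on how well short reads can be placed. In 57 exons for which a match of at least 300 bp was found, the closest other member was 65.0% to 90.8% identical over the aligned stretch. In 54 it belonged to the same group. The stretch is often only part of the exon, so these values are not identities of whole exons. The highest, between Pcdha7 and Pcdha11, covers 423 bp. Reads with a mapping quality under 10 had been left out by the authors. In the PS library 11 of the 58 exons lacked at least 1 CpG cytosine of the reference, and the least complete was Pcdhb8, with 87.7% listed and a mean depth of 6.70 reads. Its closest relative is Pcdhb6, at 89.7% identity, the beta exon with the highest TAPSβ level, while Pcdhb8 itself was at 25.7%. The part of read placement in these values was not tested.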

How the data were processed

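Genomic DNA of E14 cells was sequenced after TAPSβ, CAPS or PS treatment, 1 library each, and the CAPS fragments were selected to be shorter than the others. Per the study's methods, the authors trimmed reads with Trim Galore 0.3.1, aligned them to mm9 with BWA 0.7.12, removed duplicates with Picard 2.3.0, dropped reads of mapping quality under 10 and called modified bases with asTair. The deposited files give, for each CpG cytosine, a fraction of modified reads and the counts of modified and unmodified reads that the authors' caller produced. The fraction equalled the ratio of the deposited counts at every site within 0.0011, and the counts were used. Totals were 511365019 (TAPSβ), 377288829 (CAPS) and 383591531 (PS) base calls. The study states that it left known variants of E14 and artefact-prone regions out of its later analysis. Whether the deposited files were written before or after this step is not given in the sources used here.

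Levels were sums of modified reads over sums of all reads, with exact intervals from scipy 1.17.1. Cytosines with at least 5 reads were tested against false-positive rates of 0.0072 (CAPS) and 0.0027 (PS), carrying the CAPS test of the study over to PS, and Benjamini-Hochberg adjusted p under 0.05 was called. The test was checked on simulated data. An alternative left out sites that may differ from the reference base, taken as those where PS showed conversion in at least 20% of a minimum of 5 reads and here called variant-like.

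Exon bounds came from GENCODE M1 (NCBIM37), which lists 41 of the 58 variable exons, 23 of them under the symbol of the gene itself. The other 17 (Pcdha5 to Pcdha8 and 13 gamma exons) were taken as the open reading frames of at least 1900 bp upstream of the constant exons. Their number equalled the number of genes, and names followed the gene order in RefSeq (GRCm38.p6, used for names and order only); in listed exons such frames ran 12 to 186 bp past the exon end. The distance to the shared 3′ end matched RefSeq within 300 bp for 34 of 36 alpha and gamma genes; the exceptions were Pcdha6 (1344 bp longer in RefSeq) and Pcdhgb8 (-1306 bp, thus shorter). Exon likeness came from blastn 2.17.0. No member sequence is printed here. Genes named in the text are the C-type isoforms and, in each other group, the 3 exons highest and lowest in TAPSβ and the 2 highest and lowest in CAPS, with the 3 highest in PS and the 3 promoters highest and lowest in TAPSβ; genes beyond these (the order of alpha exons, cytosine counts, CTCF matches and read placement) were chosen after their values were seen. Members and lists were chosen with earlier results of these data known.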

Additional observations from a re-analysis of the deposited data

How the results depend on the processing

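Of 108 alternative values, 86 stayed close to the value reported (within its counting interval for levels, within 1.5 times for counts of calls). Averaging the levels of single cytosines gave TAPSβ levels of 25.1% (alpha), 33.0% (beta), 23.3% (gamma) and 24.2% (C-type) in exons, 10.5% in promoters and 30.5% in constant exons. Coding parts alone gave 29.7% (beta), 20.8% (gamma), 23.0% (C-type) and 30.2% (constant exons) in TAPSβ, 3.57% (beta) and 4.29% (constant exons) in CAPS, and 0% (constant exons, 3 counts being 0.416%) in PS, against 23.4%, 2.90% and 0.0507% for whole constant exons. Only cytosines with at least 5 reads gave 20.9% for alpha in TAPSβ. Exons listed by GENCODE, an alternative chosen after seeing the data, gave TAPSβ levels of 17.0% (alpha) and 15.5% (gamma) and a CAPS level of 2.70% (gamma). Promoters had 3.31% with 200 bp, 17.3% with 1000 bp and, also chosen after seeing the data, 6.97% upstream of the start codon. A lower false-positive rate, that of methylated lambda DNA, gave 642 CAPS calls in place of 157, while the share called in the genome went from 1.64% to 5.49%. Without variant-like cytosines 0 PS calls were left of 2, while the share called in the genome went from 0.0791% to 0.00609%. In each of these alternatives for variable exons, the beta group had the highest TAPSβ level of the 4 groups. No paired analysis was possible because each chemistry has 1 library and no comparison was tested between libraries.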
